A study of Mus musculus with 5 samples.

Results

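The genes examined here make, package and break down catecholamines and acetylcholine: Th, Ddc, Dbh, Gch1, Slc18a1, Slc18a2, Maoa, Ache and Chat. They are 9 of the 55573 genes in the count table, of which 28121 had a read. They were chosen by symbol, with no measured value in the rule, but earlier results of these data were known at that time. RNA-seq was performed on N2A cells (Neuro-2A, a commercially obtained mouse neuroblastoma line) to find transcripts whose level depends on UPF1, the RNA helicase at the core of nonsense-mediated mRNA decay (NMD). Cells of both groups were grown in DMEM/F-12 with fetal bovine serum and received 60 pmol of siRNA with the TransIT-X2 reagent. The control group (siCtl, 2 libraries, replicates 1 and 3) received Silencer Negative Control #1, and the knockdown group (siUpf1, 3 libraries, replicates 1, 2 and 3) received a single siRNA against Upf1. The labels do not say that the libraries came from separate cultures, so p-values measure the spread between these libraries, which may be technical. All cells are of 1 line, and no tissue or animal was sampled.

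Catecholamines are made in steps from tyrosine. Tyrosine hydroxylase (Th), the rate-limiting enzyme, needs the cofactor tetrahydrobiopterin, whose synthesis starts with GTP cyclohydrolase (Gch1); aromatic amino acid decarboxylase (Ddc) then gives dopamine, and dopamine β-hydroxylase (Dbh) turns dopamine into noradrenaline inside vesicles. The vesicular monoamine transporters VMAT1 (Slc18a1) and VMAT2 (Slc18a2) load vesicles, and monoamine oxidase A (Maoa) degrades monoamines in the cell. Acetylcholine is made by choline acetyltransferase (Chat) and hydrolysed by acetylcholinesterase (Ache). Neuroblastoma arises from the sympathetic lineage, in which the noradrenergic enzymes are the usual transmitter genes.

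The libraries held 20402205 to 27717594 assigned counts. Upf1 itself had 5217 and 5243 normalised counts in siCtl and 2403, 2496 and 2449 in siUpf1, which is 46.8% of the control level, and the groups did not overlap. Of the 8 markers listed for sympathetic neuroblasts, 7 had counts high enough for an adjusted p, 5 of them higher and 1 lower in siUpf1. Over all genes tested, 22.0% were higher and 22.9% lower. Levels are given in TPM, counts per exon length scaled to a fixed total per library. The summed TPM of the 8 was 705 to 762 in siCtl and 889 to 1075 in siUpf1. Hand2 made the largest part, with a mean of 292 in siCtl and 428 in siUpf1. Chga (203 and 194) and Stmn2 (125 and 110, the 1 lower marker) did not rise. The summed TPM was 3.83 to 3.84 in siCtl and 2.70 to 3.69 in siUpf1 for fibroblast markers, 2.11 to 2.34 and 1.46 to 2.19 for Schwann cell or glia markers, and 3.51 to 3.95 and 2.91 to 4.01 for immune markers.

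On Upf1 knockdown, 5 of the 9 genes rose, namely Ddc, Dbh, Gch1, Slc18a2 and Ache, and Slc18a1 fell. Th was not called, and Maoa and Chat had too few reads for an adjusted p. A gene was called at a DESeq2 adjusted p under 0.05 over all 15191 genes tested, of which 44.9% were called, 22.0% as higher and 22.9% as lower. The groups did not overlap at any of the 7 member genes tested, against 69.4% of all genes tested. The median log2 fold change of these 7 was 0.38, beside -0.0024 over all genes tested. These counts describe a small chosen set and were not tested. In RNA from whole cultures, fewer cells of a type and less RNA per cell cannot be told apart. The part of the rise in the summed neuroblast markers in these changes was not tested.

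**Figure D1:**
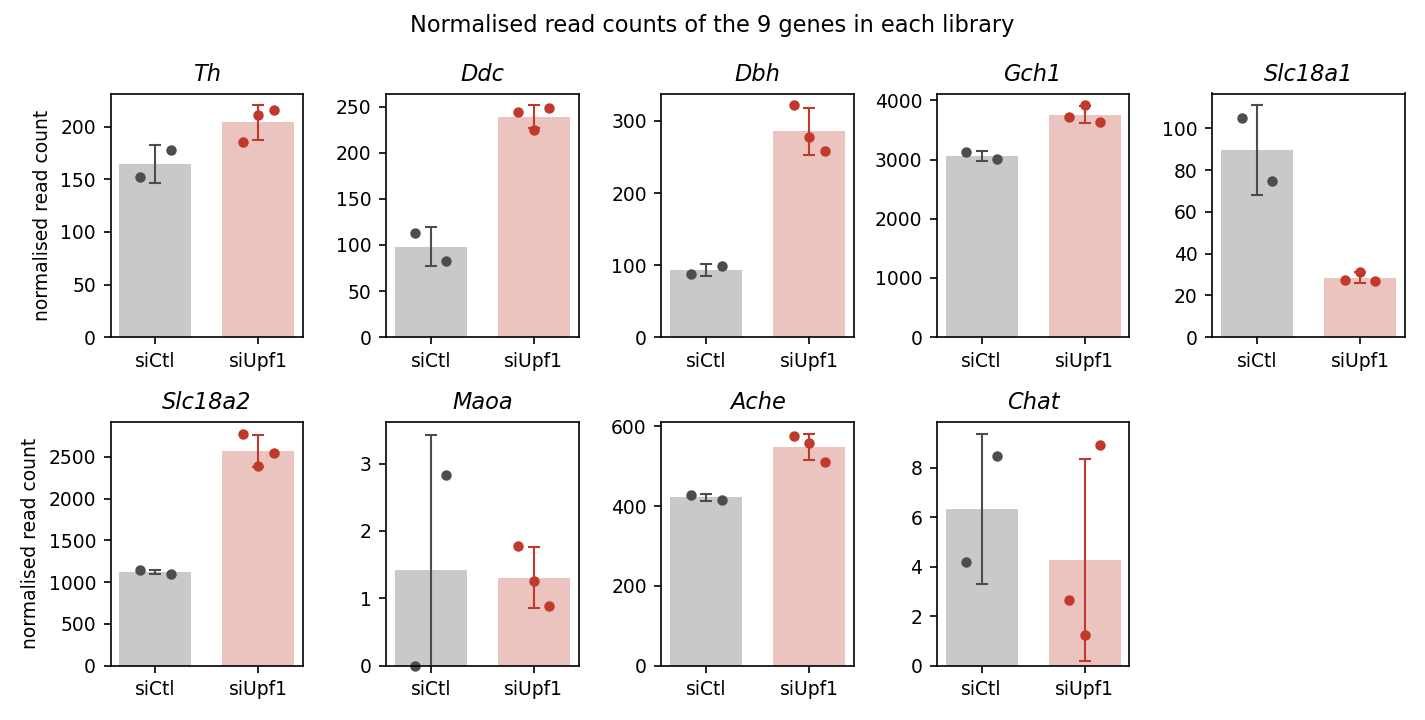
Normalised read counts of the 9 genes in each library, with a panel per gene and siCtl and siUpf1 side by side; points are libraries (2 and 3), bars are group means and error bars the SD. Dbh, Ddc and Slc18a2 lie higher and Slc18a1 lower in every siUpf1 library than in both siCtl libraries, and Maoa and Chat stay near 0.

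In the synthesis pathway, Dbh and Ddc more than doubled, Gch1 rose slightly and Th was not called. Th (chromosome 7, 142892752 to 142931128, GRCm38) had 152 and 177 normalised counts in siCtl and 185, 211 and 216 in siUpf1. All siUpf1 libraries were above both siCtl libraries, by little in the closest pair. The log2 fold change was 0.30 (SE 0.178, 95% interval -0.045 to 0.65), with a DESeq2 adjusted p of 0.159, whereas edgeR's quasi-likelihood test gave an adjusted p of 0.0389. Th was thus called by one tool only, and its interval covers both 0 and the value of Ache.

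Gch1, which supplies the cofactor of Th, was the most abundant gene of the set. It lies on chromosome 14 (47153895 to 47189413) and had 3126 and 3006 normalised counts in siCtl and 3712, 3920 and 3642 in siUpf1. The groups were separate, and the rise was small in size. The log2 fold change was 0.29 (SE 0.0548, DESeq2 adjusted p = 5.32e-07), a 1.23-fold difference. Gch1 and Th thus had nearly the same estimate, with a smaller SE for Gch1, which had more reads.

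Ddc (chromosome 11, 11814101 to 11898144) had 113 and 83.0 normalised counts in siCtl and 244, 225 and 249 in siUpf1. The siUpf1 values lay close together and above both siCtl values, which differed more from each other. The level was 2.45-fold higher (95% interval 1.88 to 3.18, DESeq2 adjusted p = 1.94e-10). Dbh (chromosome 2, 27165233 to 27183200) had 87.0 and 99.1 normalised counts in siCtl and 322, 277 and 258 in siUpf1, with no overlap. It was 3.07-fold higher (95% interval 2.38 to 3.96, DESeq2 adjusted p = 8.33e-17), at the 99.2 percentile of the log2 fold changes of all genes tested. Ddc, Dbh and Slc18a2 were among the 3.95% of genes tested whose log2 fold change reached 1.

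Per exon length, Dbh mRNA was 0.503 and 0.490 times the Th level in the siCtl libraries, and 1.53, 1.16 and 1.05 times in the siUpf1 libraries. The ratio was higher in every knockdown library than in both control libraries. Whether Dbh exceeded Th depended on the length used: with the length of a representative transcript the ratios were 0.410 and 0.400 in siCtl and 1.25, 0.943 and 0.856 in siUpf1. The ratio of Ddc to Th was 0.395 and 0.248 in siCtl and 0.698, 0.565 and 0.611 in siUpf1, again with no overlap. By contrast, the ratio of Gch1 to Th was 7.78 and 6.41 in siCtl and 7.59, 7.03 and 6.39 in siUpf1, and these ranges overlapped. These ratios are descriptions, as the differences between genes were not tested.

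The vesicular monoamine transporters moved in opposite directions. Slc18a2 (VMAT2, the transporter of neurons; chromosome 19, 59260896 to 59296012) had 1143 and 1103 normalised counts in siCtl and 2780, 2395 and 2544 in siUpf1. The siCtl libraries were nearly equal, and each siUpf1 library lay far above them. The difference was 2.29-fold (95% interval 2.08 to 2.54, DESeq2 adjusted p = 1.78e-57). Slc18a1 (VMAT1, the transporter typical of endocrine chromaffin cells; chromosome 8, 69037711 to 69089235) had 105 and 74.5 normalised counts in siCtl and 27.6, 31.4 and 26.7 in siUpf1. The siUpf1 values lay under both siCtl values without overlap, and the siCtl values were the more variable. The siUpf1 level was 0.317 of the siCtl level (95% interval 0.201 to 0.500), or -1.66 on the log2 scale (SE 0.335, DESeq2 adjusted p = 3.98e-06). Only 2.67% of genes tested had a log2 fold change of -1 or lower.

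Per exon length, Slc18a2 was 11.3 and 15.3 times the level of Slc18a1 in siCtl and 104, 78.9 and 98.3 times in siUpf1. Slc18a2 was thus the main form in both groups, with 91.8% and 93.9% of the summed transporter level in siCtl and 99.0%, 98.7% and 99.0% in siUpf1. The sum of both rose from 25.8 and 25.7 TPM to 64.9, 45.9 and 54.3 TPM, without overlap, although siUpf1 replicate 2 lay well under the other two.

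**Figure D2:**
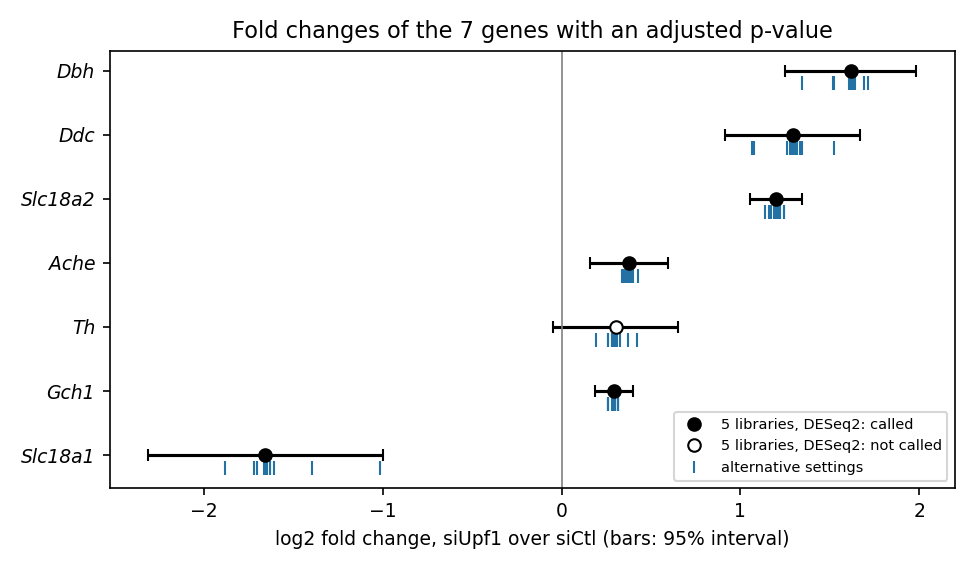
Log2 fold change of siUpf1 over siCtl for the 7 genes with an adjusted p, with 95% intervals as bars, filled points for called genes, and tick marks for the values under the alternative settings. Only Slc18a1 lies below 0, and the interval of Th alone includes 0.

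Of the genes that end transmitter action, Ache rose and Maoa had too few reads to compare. Ache (chromosome 5, 137287519 to 137294466), which hydrolyses acetylcholine, had 429 and 415 normalised counts in siCtl and 575, 559 and 511 in siUpf1. The groups were separate, with the lowest siUpf1 library well above both siCtl libraries. It was 1.30-fold higher (95% interval 1.11 to 1.51, log2 fold change 0.38, SE 0.113, DESeq2 adjusted p = 0.00248). This call was lost without siCtl replicate 3 (DESeq2 adjusted p = 0.0763) and with replicate number as a block (0.127).

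Maoa (chromosome X, 16619698 to 16687818) had 0 and 3 reads in siCtl and 2, 1 and 1 in siUpf1. Both groups were at or under a floor of 3 counts, so no fold change is given and no difference was detectable at this depth. Chat (chromosome 14, 32408203 to 32465989) had 4 and 9 reads in siCtl and 3, 1 and 10 in siUpf1, and the groups overlapped. Slc18a3, the vesicular acetylcholine transporter, lies inside the Chat gene on the same strand without sharing exon bases with it, and had 11 and 9 reads in siCtl and 13, 4 and 11 in siUpf1. The summed TPM of the 5 motor neuron or cholinergic markers was 12.1 to 14.0 in siCtl and 36.4 to 50.5 in siUpf1, nearly all of it from Isl1, and Slc5a7, the choline transporter of cholinergic neurons, had 0 or 1 read per library. The cells thus carried mRNA for acetylcholine breakdown but little for its synthesis and packaging.

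Levels per exon length placed Gch1 highest, and Chat and Maoa lowest, in both groups. In siCtl the order was Gch1 at 54.6 ± 0.64 TPM, Slc18a2 at 23.9 ± 0.345, Ache at 10.2 ± 0.169, Th at 7.77 ± 1.15, Dbh at 3.86 ± 0.504, Ddc at 2.44 ± 0.436, Slc18a1 at 1.84 ± 0.369, Chat at 0.152 ± 0.0779 and Maoa at 0.0389 ± 0.055 (mean ± SD, n = 2). No neighbours in this order overlapped in range, but with 2 libraries the range is short. In siUpf1 Gch1 had 66.0 ± 5.05 TPM and Slc18a2 54.5 ± 9.47 (n = 3), and these ranges overlapped. Ache at 13.1 ± 1.71 and Dbh at 11.7 ± 2.35 TPM also overlapped, ahead of Th at 9.45 ± 0.63, Ddc at 5.91 ± 0.835 and Slc18a1 at 0.579 ± 0.0348. The ranges of Chat (0.101 ± 0.0959 TPM) and Maoa (0.035 ± 0.0147 TPM) overlapped in siUpf1. With the length of a representative transcript in place of all merged exons, Ddc (3.94 TPM) came above Dbh (2.97 TPM) in siCtl, so the order of this pair depends on the length used.

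**Figure D3:**
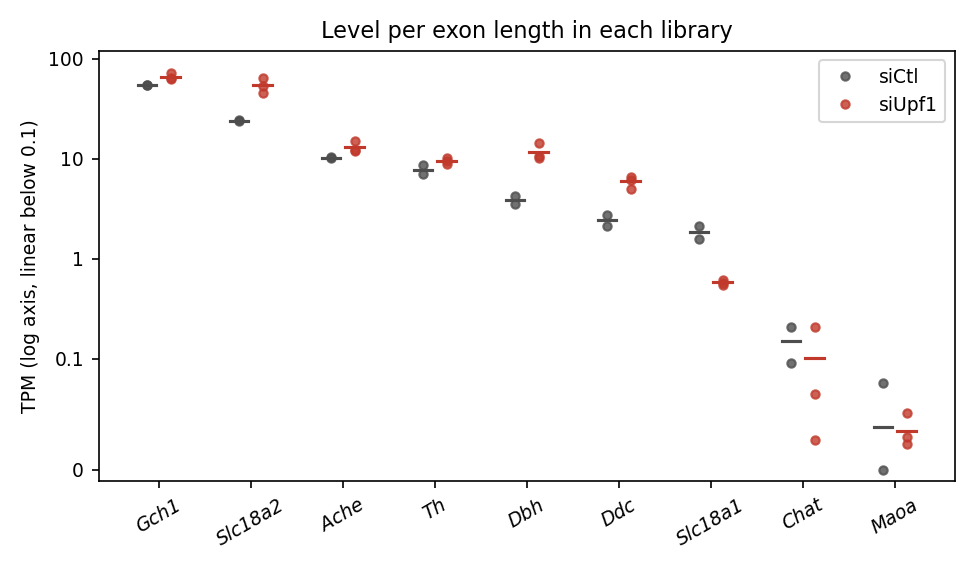
TPM of the 9 genes in each library on an axis that is logarithmic above 0.1 and linear below, ordered by level in siCtl, with points for libraries and short lines for group means. Slc18a2 approaches Gch1 in the siUpf1 libraries, and Dbh lies above Th there with these merged exon lengths, but in 1 of 3 siUpf1 libraries with those of a representative transcript.

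The start sites of 8 of the 9 genes had a RefSeq promoter window (250 bases before to 50 after the start, GRCm38.p6), with Slc18a1 as the exception and Ddc with 2 windows. These windows were searched for the cyclic AMP response element (CRE, TGACGTCA), its shorter form TGACG on either strand and the E-box CANNTG. CRE binds CREB-family factors and is a known element of the tyrosine hydroxylase promoter. The full CRE occurred in Th, starting at position -45, and in Slc18a2, starting at -4, so that it spans the RefSeq start site there. The gene spans given above differ from these starts. That of Slc18a2 begins after the site, at 59260896, and that of Th holds its site. It occurs in 1.79% of 32851 windows of this length. Both sites are shown with 11 bases on either side, on the gene's strand, the CRE in capitals, because they are shared by Th, which was not called, and Slc18a2, which rose.
Th, chr7:142900022-142900051, minus strand: cagaggggcttTGACGTCAgcctggccttt
Slc18a2, chr19:59260863-59260892, plus strand: agcgctgtccgTGACGTCAgagccggactg
The shorter TGACG, which every full CRE also contains, was found alone in Dbh (as its reverse complement), Gch1, Maoa and Chat, and in 20.8% of all windows. The site in Gch1 starts at position -88, and that in Dbh at -222, counted from the RefSeq start. The Dbh site lies inside the gene span given above, which begins at 27165233, so it is upstream of the RefSeq start only.
Gch1, chr14:47189486-47189512, minus strand: ggagagatccaTGACGcaagaggctcc
Dbh, chr2:27165274-27165300, plus strand: tttccaacaggCGTCAgagatttgttg
An E-box occurred in 72.3% of all windows. Neither Ddc window held any of these motifs, and that of Ache held an E-box only. Genes with and without these letters are thus found among those that rose.

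The transcript annotation was examined for features linked to NMD and for letters matching the siRNA. Of the 9 genes, only Th had transcripts annotated as NMD substrates, 3 of its 6, whereas 28.4% of 12584 tested protein-coding genes had at least 1. Upstream open reading frames were present in 4 of 9 representative transcripts (44.0% of genes), 4 of them in Dbh, 4 in Slc18a1, and 1 each in Ddc and Maoa. Dbh and Slc18a1 thus had the same number and opposite changes. None of the 9 had an exon junction more than 50 nt after the stop codon (0.437% of genes). The representative 3′ UTRs ranged from 228 nt in Ache and 279 nt in Th to 2096 nt in Slc18a2 and 2443 nt in Maoa, beside a median of 985 nt. The strands of the Upf1 siRNA are shown with the seed, bases 2 to 8, in capitals.
Upf1 siRNA as given by the labels: uCAAGGUUccugauaauua
Its reverse complement: uAAUUAUCaggaaccuuga
The complements of these seeds are AACCTTG and GATAATT. Neither was found in the 3′ UTR of any of the 9 genes, compared with 9.81% and 7.58% of all genes. The 7-mers CAGTACA and GCAGTAC match neither seed. They were searched because they were more frequent in mRNAs higher in siUpf1 in an earlier analysis of these data. A match is therefore not independent of these data. CAGTACA was present in the 3′ UTRs of Gch1 and Maoa (8.59% of genes), and GCAGTAC in none (5.09%). Absence says only that these letters are not in these windows, and N2A cells may use other isoforms.

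To set these genes beside the rest of their pathways, 9 lists with 90 genes were described. Of the 51 genes that could be tested, 16 were higher and 9 lower, a share near the 44.9% called among all genes tested (22.0% higher and 22.9% lower). Their median log2 fold change was 0.11. Lower calls fell from 9 to 5 without siCtl replicate 1. In the cofactor list, 2 of 7 rose, among them Qdpr (log2 fold change 0.65), which regenerates the cofactor. Qdpr had 1101 and 1162 normalised counts in siCtl and 1798, 1849 and 1674 in siUpf1, with no overlap. Spr, which completes biopterin synthesis, was lower (-0.22, DESeq2 adjusted p = 0.0373), a call that several other settings did not keep. The list's median was 0.16, or 0.074 without siCtl replicate 1.

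Of other monoamine synthesis genes, 1 of 3 tested rose and 1 fell (median -0.05, with -0.098 without siCtl replicate 1, -0.0093 without siCtl replicate 3 and -0.0079 without siUpf1 replicate 3). Tph1, a tryptophan hydroxylase of serotonin synthesis, had 301 and 303 normalised counts in siCtl and 497, 557 and 524 in siUpf1. The groups were well apart, by 0.80 on the log2 scale (SE 0.12, DESeq2 adjusted p = 2.67e-10). Hdc, the histamine-forming decarboxylase, had 82.8 and 92.5 normalised counts in siCtl and 21.3, 46.4 and 34.8 in siUpf1 (log2 fold change -1.38, DESeq2 adjusted p = 0.000214). The related decarboxylases Ddc, a member, and Hdc, a list gene, thus changed in opposite directions, Ddc up and Hdc down.

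Monoamine breakdown had 5 of 7 tested genes lower and none higher, with a median log2 fold change of -0.24. Aldh2 (log2 fold change -0.38) and Akr1b3 (-0.48), which clear aldehydes, and Comtd1 (-1.04) were among those that fell. Maob had no read in any library, which at this depth allows up to 0.108 to 0.147 CPM, counts scaled to library size.

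Among transmitter transporters, 1 of 4 tested rose, Slc29a4, the plasma membrane monoamine transporter (780 ± 39.8 normalised counts in siCtl and 1402 ± 152 in siUpf1, log2 fold change 0.84). Slc6a2, the noradrenaline transporter, had at most 1 read per library, and Slc6a3, the dopamine transporter, had none. The median of this list was -0.02 and changed sign under several settings. Of acetylcholine handling genes, 1 of 5 tested rose, Prima1, which anchors acetylcholinesterase in the membrane (289 ± 10.3 to 406 ± 6.07 normalised counts, log2 fold change 0.49, DESeq2 adjusted p = 0.000433). The replicate block left no call in this list. Bche, the related butyrylcholinesterase, had at most 1 read.

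Receptors were less often testable. Of the adrenergic and dopamine receptors, 3 of 14 were tested and none was called by DESeq2 (median 0.77), with edgeR calling 1. These 3 had only 11 to 46 reads per library. Of the muscarinic receptors, 3 of 5 were tested and none was called by DESeq2 (median 0.90, or 0.39 without siCtl replicate 1). The median of 0.90 was that of Chrm3, with 5 to 22 reads per library. Chrm4, with 264 to 395 reads, had a log2 fold change of 0.047. DESeq2 called 1 of the 5 higher with TMM size factors, with the minimum of 10 counts and with no filter. The edgeR test called 2, Chrm1 and Chrm2. Chrm2 was not among the 3 tested in the main fit, with 0 and 3 reads in siCtl and 17, 10 and 12 in siUpf1. The nicotinic receptors and chaperones had 9 of 19 tested and 3 higher: Chrna5 (log2 fold change 1.14), Chrnb2 (0.81) and Chrna7 (0.36, DESeq2 adjusted p = 0.0425), with a list median of 0.01. The replicate block left 1 higher call in this list, and TMM size factors or no filter left 2. No fit that left out a library kept all of these calls. The list median changed sign without siCtl replicate 1 or siUpf1 replicate 3.

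Transcriptional regulators of these genes had the most calls, 8 higher and 2 lower among 10 tested, with a median of 0.72. Isl1, a LIM homeodomain factor of sympathetic neurons, had 419 and 455 normalised counts in siCtl and 1627, 1447 and 1487 in siUpf1 (log2 fold change 1.80, SE 0.0908). All siUpf1 libraries were thus well above both siCtl libraries. Nr4a2, an orphan nuclear receptor known for its role at the Th promoter, rose by a log2 fold change of 1.12, and Tfap2b by 0.93. Rest, which represses neuronal genes, fell slightly (log2 fold change -0.28, DESeq2 adjusted p = 0.000678), and Gata2 fell by 0.12 on the log2 scale (DESeq2 adjusted p = 0.0232). Without siCtl replicate 1, and under the replicate block, neither of these 2 lower calls was kept. The groups did not overlap for any of the 10, beside 69.4% of all genes tested. Isl1, Hand2 and Gata3 are among the regulators also in the neuroblast marker list, so that list and this one are not independent.

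**Figure D4:**
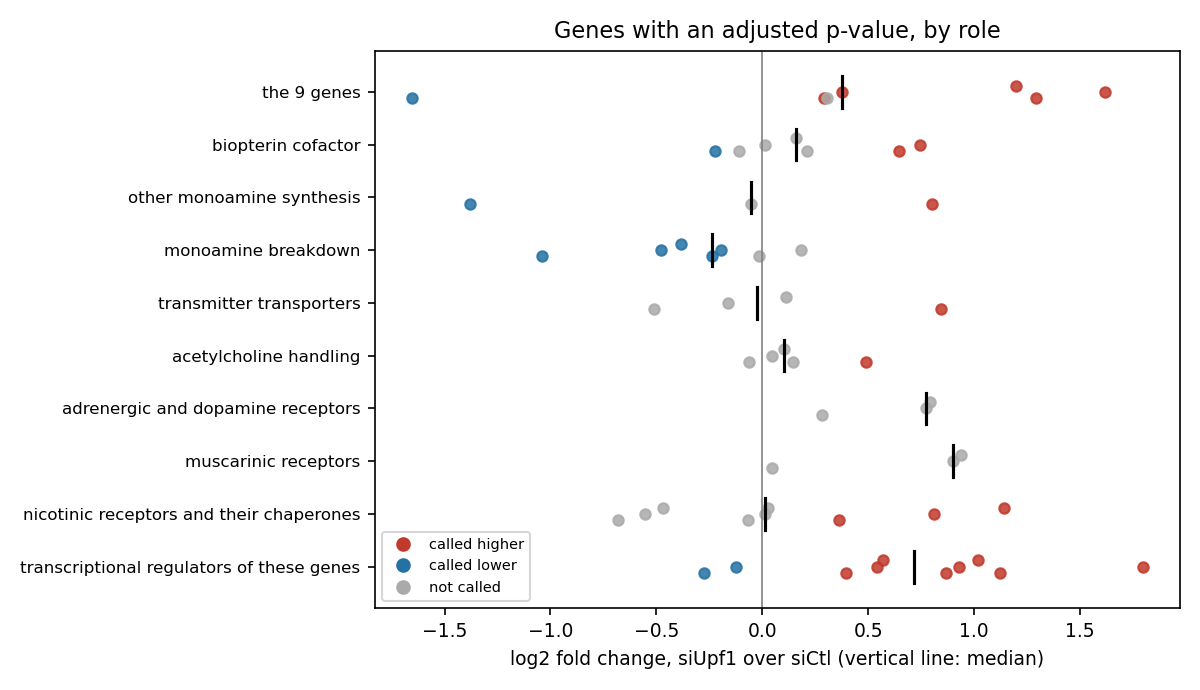
Log2 fold change of siUpf1 over siCtl for the 7 tested member genes (top row) and each tested gene of the 9 lists, with colours for calls by DESeq2 and a vertical line at each median. The regulators lie mostly above 0, up to Isl1 at 1.80, and the breakdown genes mostly below.

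The genes nearest to each called gene in profile were found by the root mean square distance of centred log2 normalised counts over the 5 libraries, among 10963 genes. For Dbh these were Bcl2 (distance 0.0647), Cnr1 (0.0653) and Gria2 (0.0816), and for Ddc C130073E24Rik (0.0697), Sp4 (0.0881) and Ppp1r21 (0.0921). Slc18a2 had Megf9 (0.0179), Rab8b (0.0415) and Itga8 (0.0449) nearest. For Slc18a1 the nearest were Ndrg2 (0.0827), Spint1 (0.0978) and Asah2 (0.122). The distances for Gch1 (Zfp598 at 0.00586) and Ache (Syt17 at 0.00948) were smaller. These distances are descriptions over 5 libraries in 2 groups.

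The directions of Ddc, Dbh, Gch1, Slc18a1 and Slc18a2 were the same under all 12 alternative settings. These genes also kept their calls, though shrinkage carries over the adjusted p of the main fit and cannot change a call. Their log2 fold changes ranged from 1.06 to 1.52 for Ddc, 1.35 to 1.71 for Dbh, 0.26 to 0.32 for Gch1, -1.88 to -1.02 for Slc18a1 and 1.14 to 1.25 for Slc18a2. With 2 libraries against 3, an exact permutation test cannot give a p under 0.1, so each call above comes from the model across all genes.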

How the data were processed

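Raw read counts per gene were deposited. Per the labels and the study's methods, the authors trimmed reads, mapped them to GRCm38.p6 with STAR and counted exon reads on the reverse strand with featureCounts (Subread 1.6.4) and a GENCODE annotation. Poly(A) RNA and a stranded kit were used. The counts were not normalised or pooled. From the counts, siUpf1 (n = 3) was compared with siCtl (n = 2) by DESeq2 1.42.0 (Wald test, two-sided, median-of-ratios size factors, independent filtering, Benjamini-Hochberg over all genes) in R 4.3.3. Genes were called at an adjusted p under 0.05. Alternatives were edgeR 4.0.16, TMM or total-count size factors, a minimum of 10 counts in 2 libraries, no filter, shrinkage, a block for the replicate number and the omission of single libraries. TPM used merged exon lengths of GENCODE M21, in which 99.3% of identifiers were found. Members and lists were chosen with earlier results of these data known. Named list genes were called, averaged 50 or more normalised counts and had one of the 4 largest changes of their list, beside Upf1, the 9 members and Slc18a3, Maob and Bche. Some genes that the rule named are not reported here. Slc6a2, Slc6a3, Rest, Gata2, Chrm1, Chrm2, Chrm3, Chrm4, Hand2, Chga and Stmn2 were chosen after their values were seen. Genes nearest in profile had to average 100 or more normalised counts. Scripts were tested on simulated data. PCR duplicates cannot be recognised in counts, so the limit of 3 counts behind 0 reads covers counting error only.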

Additional observations from a re-analysis of the deposited data

How the results depend on the processing

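Of the 9 genes, Ddc, Dbh, Gch1, Slc18a1 and Slc18a2 kept their direction under all 12 settings. They also kept their calls, which shrinkage could not change because it carries over the adjusted p of the main fit. Th was called by edgeR only (log2 fold change 0.31, adjusted p = 0.0389), with adjusted p from 0.0389 to 0.583 over the settings. Ache kept its direction, with log2 fold changes from 0.34 to 0.43 when a library was left out. Deviations from the group mean correlated little between libraries of the same replicate number (-0.0861 for number 1 and -0.0748 for number 3). With 2 siCtl libraries their deviations mirror each other, so these correlations are not independent and cannot decide whether replicate numbers pair the libraries. The replicate block gave 1957 higher and 1962 lower genes, 5 lower pathway genes, and for Ache 0.36 (DESeq2 adjusted p = 0.127). In that fit siUpf1 replicate 2, which has no siCtl library of its number, adds nothing to the fold change, and fewer residual degrees of freedom remain. Why calls were lost under the block was not tested. Without siCtl replicate 3 the call of Ache was lost (0.35, adjusted p = 0.0763). Over the fits with a library omitted, 5 to 9 pathway genes were lower, with 5 without siCtl replicate 1. A fit without a siCtl library assumes that the remaining one varies like siUpf1.

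The fitted value of Maoa, at or under 3 counts in every library, was 0.93 under the block and -1.11 to 2.76 across the left-out libraries (2.76 without siCtl replicate 3 and 0.093 without siUpf1 replicate 3), and that of Chat was -1.66 to 0.054. The median of the transmitter transporters turned positive with edgeR (0.0016), the block (0.096) and total counts (0.00046), and was -0.15 to 0.17 across the left-out libraries (0.072 and 0.17 without siCtl replicate 1 and 3, 0.093 without siUpf1 replicate 2). The nicotinic median was -0.020 without siCtl replicate 1, -0.013 without siUpf1 replicate 3, and -0.020 to 0.054 over all such fits. With the length of a representative transcript, siCtl levels were 3.94 TPM for Ddc, 2.97 for Dbh, 89.8 for Gch1, 2.33 for Slc18a1 and 15.7 for Ache. The causes of these changes were not tested. With at most 10 reads per library, Maoa and Chat had no adjusted p.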
